A study of Mus musculus with 23 samples.

Results

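The genes of the amyloid precursor protein (APP) family and of the enzymes that cut its proteins were examined in retinal microglia of the mouse. The set holds 9 genes, taken by name from the 35825 genes of the deposited table: App and its relatives Aplp1 and Aplp2, the β-secretase gene Bace1, the α-secretase gene Adam10, and the γ-secretase genes Psen2, Ncstn, Aph1a and Psenen. All 9 were present in the table and all 9 passed the filter on low values. GFP+ microglia had been sorted by FACS from retinas of CX3CR1-GFP mice (WT) and of Spp1KO/CX3CR1-GFP mice (KO), so that every group carried the GFP reporter in the Cx3cr1 locus, and the KO line had been bred to homozygosity for a mutant allele of Spp1, the gene for a secreted phosphoprotein also called osteopontin. Naïve retinas were compared with retinas 4 weeks after intraocular pressure (IOP) elevation by microbeads injected into the anterior chamber, and with retinas 7 days after optic nerve crush (ONC). Each genotype had 4 libraries of naïve retinas and 4 after IOP elevation, and there were 3 WT and 4 KO libraries after ONC, 23 in all. By the study's methods, retinas from more than one mouse went into each sort, so that a library stands for a pool and p-values measure the spread between pools. The ages of the mice are not given in the sources used here.

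APP is a membrane protein of neurons, glia and many other cells. Its extracellular part is shed either by α-secretase, chiefly ADAM10, or by β-secretase, BACE1, and the stub that stays in the membrane is then cut by γ-secretase. After β-secretase the second cut releases amyloid-β, and after α-secretase it does not. γ-Secretase is a complex in which a presenilin (the product of Psen2, among the genes described here) holds the active site, nicastrin (Ncstn) is the large glycosylated subunit, APH1 (Aph1a, and in rodents Aph1b and Aph1c) is a scaffold, and PEN-2 (Psenen) is needed for the presenilin to mature. Microglia are better known for taking up and degrading amyloid-β than for making it, and both ADAM10 and γ-secretase cut many other membrane proteins, Notch receptors and the microglial receptor TREM2 among them. APLP1 and APLP2 are related to APP but contain no amyloid-β sequence. Aplp1 is known mainly from neurons, whereas Aplp2 is made in most cells.

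On the mouse reference GRCm38 (GENCODE M21), all 9 are protein-coding genes. App lies at chr16:84949685-85173766 on the minus strand. Aplp1 (chr7:30434982-30445535, minus strand) and Psenen (chr7:30561863-30563627, minus strand) are on the same chromosome, and Aplp2 (chr9:31149557-31211815, minus strand), Bace1 (chr9:45838580-45864399, plus strand) and Adam10 (chr9:70678997-70780229, plus strand) share another. Ncstn (chr1:172066013-172082795, minus strand) and Psen2 (chr1:180227004-180263438, minus strand) lie on the distal part of one chromosome, and Aph1a is at chr3:95893969-95898288 on the plus strand. Whether the reads were counted by strand is not given in the sources used here. Exons of some members overlap exons of protein-coding genes on the opposite strand, namely Bace1 with Rnf214 over 975 bases, Aph1a with Car14 over 445, Ncstn with Copa over 195 and Psenen with U2af1l4 over 119 and with Gm49396 over 111. Values of these 4 genes could therefore hold reads of the neighbour.

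Promoters were available from RefSeq (GRCm38.p6) for 8 of the 9 genes, in 10 windows because Psen2 and Psenen had 2 starts each. The 250 bases before the start of Aplp2, a member that was lower after ONC in both genotypes, and of Adam10, which was higher after ONC in KO, are shown 5′ to 3′ on the strand of the gene, with capitals for the GC box GGGCGG and the E-box CACGTG, each searched on both strands.
Aplp2, chr9:31211849-31212098, minus strand: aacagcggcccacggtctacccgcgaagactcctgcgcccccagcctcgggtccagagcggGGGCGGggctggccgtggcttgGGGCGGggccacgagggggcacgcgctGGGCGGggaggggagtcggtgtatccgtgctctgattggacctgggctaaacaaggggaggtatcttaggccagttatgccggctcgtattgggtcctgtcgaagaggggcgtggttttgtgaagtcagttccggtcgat
Adam10, chr9:70678732-70678981, plus strand: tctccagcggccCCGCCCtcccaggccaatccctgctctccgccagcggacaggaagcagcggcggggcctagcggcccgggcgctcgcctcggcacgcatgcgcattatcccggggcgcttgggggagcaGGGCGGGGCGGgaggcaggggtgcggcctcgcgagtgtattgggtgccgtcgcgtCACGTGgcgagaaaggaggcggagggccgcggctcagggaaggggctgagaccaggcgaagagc
The Aplp2 window held 3 GC boxes and the Adam10 window 3 GC boxes, a pair of which overlap by 1 base, and 1 E-box. A GC box was present in 6 of the 10 member windows, and in 32.7% of the 32851 promoter windows of the same length. The TATA box TATAAA was in 0 of the 10 windows and in 12.4% of all, and the E-box was in 2 of the 10 and in 6.02% of all. Also searched on both strands, the ETS site CCGGAAGT was in 1 of the 10 and in 2.88% of all, the PU.1 core GAGGAAGT in 0 and 2.44%, and the AP-1 site TGACTCA in 0 and 4.46%. The median GC content of the member windows was 63%, against 52.4% over all windows. These are counts of letters in a window, not binding sites.

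The libraries held 22180480 to 30296094 reads on genes (median 26914869), and 3 reads, the most a zero count leaves possible by counting error alone, corresponded to 2.41 to 4.03 normalized counts. The lowest value of any member in any library was 235 normalized counts, so that counting error was small beside the spread between libraries. The 10 homeostatic microglia markers together made up 1.12 to 3.35% of the normalized counts of a library and were all above 0 in every library. Other retinal cells also contributed transcripts: the 12 rod photoreceptor markers made up 0.514 to 3.72%, and the lens markers 0.146 to 1.07% in the WT IOP libraries and at most 0.0233% elsewhere. Markers of retinal ganglion cells made up 0.00374 to 0.0702%, of bipolar and amacrine cells 0.0309 to 0.335%, of Müller glia and astrocytes 0.0841 to 0.436% and of endothelium and pigment epithelium 0.000828 to 0.0524%. KO naïve replicates 1, 2 and 4 stood apart, with 1.12%, 1.39% and 1.53% of homeostatic microglia transcripts against 3.23% in replicate 3. WT IOP replicates 1 and 4 were also low, at 1.74% and 1.93%. Spp1 was not at 0 in the libraries labelled KO, where it ranged from 6.78 to 350.2 normalized counts in naïve retinas, 9.28 to 811 after IOP elevation and 15 to 6811 after ONC, against 334 to 1518, 1343 to 2772 and 14557 to 22906 in WT. Whether the counted exons are those removed from the mutant allele is not given, so these values do not check the labels, and KO below means a library labelled KO. Cx3cr1 itself stood at 952 to 1233 normalized counts in KO IOP, against 9417 or more in every other library. The whole microglia list stood at 2.58 to 3.30% in KO IOP, and 9 of its 10 genes were higher there than in KO naïve. For the low list shares of KO naïve and WT IOP libraries, fewer microglia and less RNA per microglial cell cannot be told apart in sorted pools.

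App was far above the limit of 3 reads in every library, and it was called in none of the 9 comparisons of the limma fit. The study, in contrast, reports that APP mRNA was not detected in microglia, with WT retinas after IOP elevation shown. Which cells of the sorted pools the App reads came from was not tested. In WT it stood at 2970.3, 6464, 5618 and 6625 normalized counts in naïve retinas, at 5437, 7205, 4560.2 and 3489 after IOP elevation and at 7169.6, 5171 and 6733 after ONC. In KO it stood at 13792, 7777, 8587 and 5379.8 in naïve retinas, at 7178, 9463, 7387 and 8903 after IOP elevation and at 5584, 6276, 7117 and 7958 after ONC. The ranges of naïve and injured libraries overlapped in both genotypes, and the highest value of all, in KO naïve replicate 1, and the lowest, in WT naïve replicate 1, were both from naïve retinas. The log2 difference between WT IOP and WT naïve was -0.049 (95% CI -0.61 to 0.51, adjusted p = 0.96), on the log2(normalized count + 1) scale of all log2 differences here. That interval leaves room for a change of about the size used as the calling threshold in either direction. App was higher in KO than in WT by a log2 difference of 0.70 in naïve retinas and 0.71 after IOP elevation, but the libraries overlapped and neither passed the test (limma, adjusted p = 0.202 and 0.148). After ONC the means were 6358 ± 1051 (SD, n = 3) in WT and 6734 ± 1029 (SD, n = 4) in KO (log2 difference 0.084, adjusted p = 0.964). Against naïve retinas of its genotype, App after ONC differed by 0.28 in WT (adjusted p = 0.522) and by -0.33 in KO (adjusted p = 0.387). With quantile normalization the KO ONC difference was -0.75 and was called (adjusted p = 0.0477).

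Aplp1 was the most variable member, with a 31.8-fold range over the 23 libraries. The WT libraries held 235, 675, 573 and 1657 normalized counts in naïve retinas, 1592, 657, 419.6 and 627 after IOP elevation and 1816, 2635 and 1950.0 after ONC. The KO libraries held 7481, 4149, 875 and 868 in naïve retinas, 555, 742, 4549 and 4681 after IOP elevation and 3392, 1692, 867 and 692 after ONC. Replicates of one KO group thus lay far apart, most plainly in KO IOP, where replicates 1 and 2 lay several-fold below replicates 3 and 4. Although all 3 WT ONC libraries lay above all 4 WT naïve libraries, the difference did not pass the test (log2 difference 1.75, 95% CI 0.029 to 3.48, adjusted p = 0.141).

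Aplp2, the most abundant family member, fell after ONC in both genotypes. Its WT values were 27643, 27871, 30230.4 and 27409 normalized counts in naïve retinas, 17280.3, 18743, 20866 and 20230.0 after IOP elevation and 10043, 21193 and 14414 after ONC. Its KO values were 36925, 30936, 24304 and 31086 in naïve retinas, 26704, 23368, 20494 and 22091 after IOP elevation and 14079, 11350.2, 15759.9 and 17697 after ONC. All ONC libraries lay below all naïve libraries of their genotype. The mean went from 28288 ± 1308 (SD, n = 4) to 15217 ± 5618 (SD, n = 3) in WT, 1.95-fold lower (log2 difference -0.96, 95% CI -1.39 to -0.53, adjusted p = 0.00269). In KO it went from 30813 ± 5158 (SD, n = 4) to 14722 ± 2690.3 (SD, n = 4), 2.1-fold lower (log2 difference -1.07, 95% CI -1.47 to -0.67, adjusted p = 0.000444). After IOP elevation the 4 WT libraries were again all below the naïve ones, by a log2 difference of -0.56, which missed both the adjusted p (0.173) and the threshold of 0.58. Against KO naïve replicate 3 alone the KO ONC difference was -0.74 and was not called. No difference between KO and WT was called for Aplp2 under any of the 3 conditions.

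**Figure D1:**
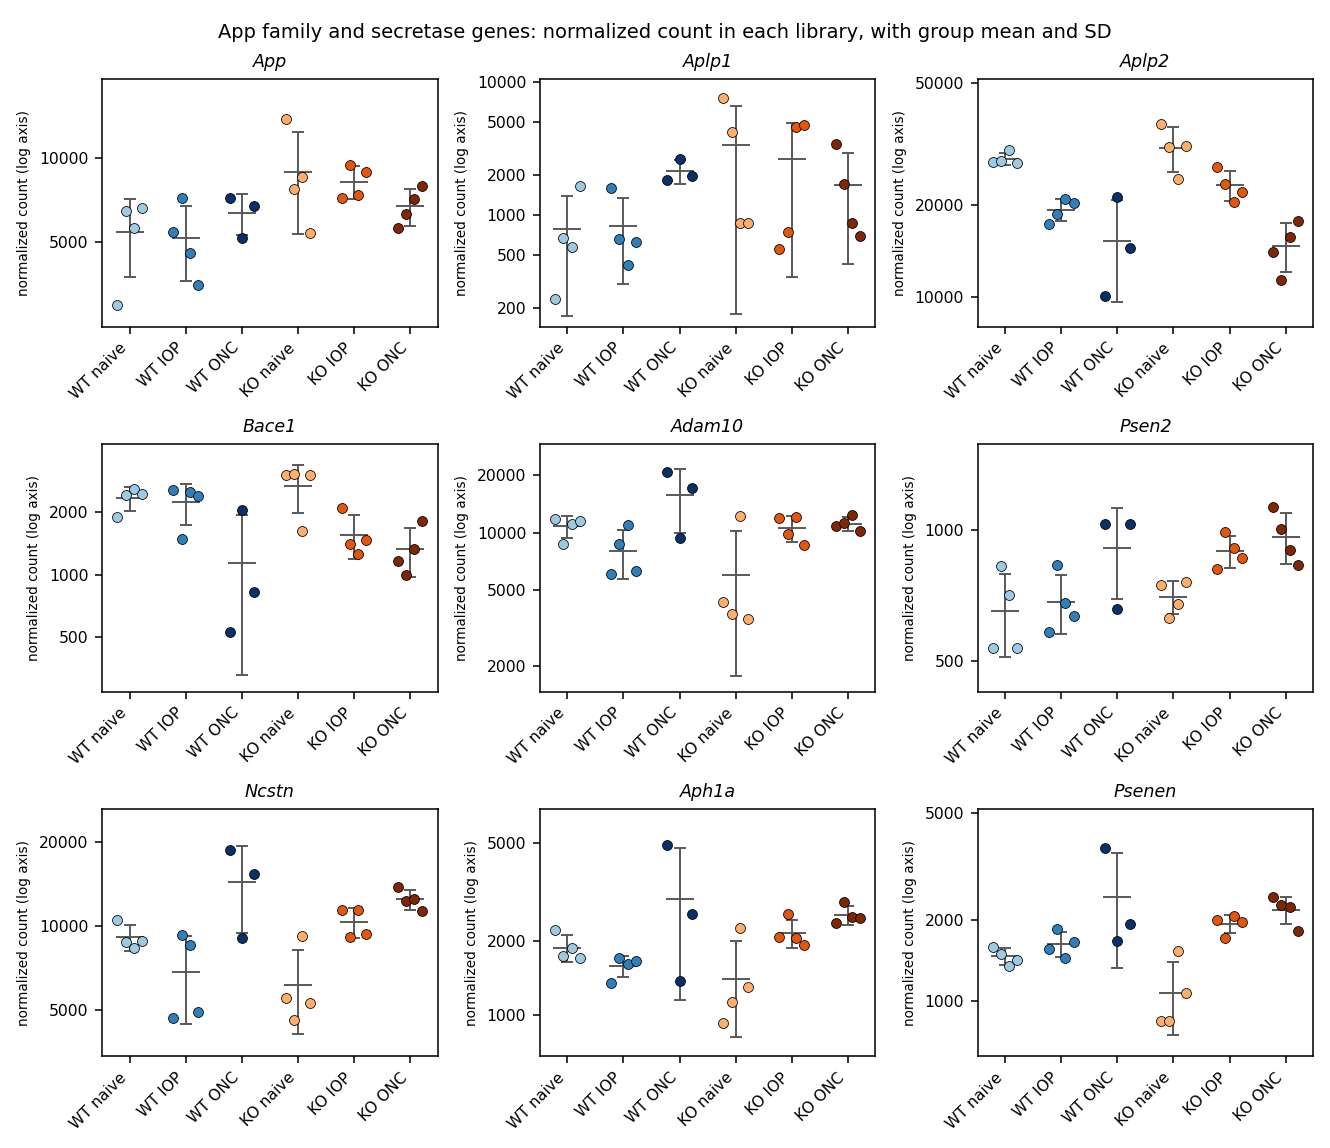
Normalized count (log axis) of the 9 genes in each of the 23 libraries, with the group mean as a horizontal line and the SD as a bar (n = 4, and 3 for WT ONC). Aplp2 lies lower after ONC in both genotypes, Aplp1 is widely spread within KO IOP and KO naïve, and KO naïve replicate 3 stands apart from the other 3 libraries of its group for Adam10, Ncstn, Aph1a, Psenen and Bace1.

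The β-secretase gene Bace1 fell after ONC, again in both genotypes, while libraries of naïve and crushed retinas overlapped. WT libraries gave 1894, 2428, 2581 and 2449 normalized counts in naïve retinas, 2554, 1492, 2495 and 2408 after IOP elevation and 531, 2062 and 829 after ONC. KO libraries gave 3022, 3058, 1627 and 3018 in naïve retinas, 2109, 1407, 1263 and 1474 after IOP elevation and 1171, 1001, 1338 and 1821 after ONC. WT ONC replicate 2 and KO naïve replicate 3 were the libraries that reached into the other group. The fall was 2.4-fold in WT (log2 difference -1.26, 95% CI -1.96 to -0.56, adjusted p = 0.0129) and 2-fold in KO (log2 difference -0.997, 95% CI -1.65 to -0.35, adjusted p = 0.0235). After IOP elevation Bace1 averaged 2237 ± 500.2 (SD, n = 4) in WT, and in KO its log2 difference from naïve was -0.76, which did not pass the test (adjusted p = 0.124). The WT ONC call was lost without WT ONC replicate 1 (log2 difference -0.83, adjusted p = 0.137) or replicate 3 (adjusted p = 0.0569). It was also lost with edgeR (adjusted p = 0.0508), with the rod list as a covariate and in a fit of the compared groups alone. The KO ONC call was lost without KO naïve replicate 1, 2 or 4 or KO ONC replicate 1 or 2 (adjusted p = 0.0569 to 0.0827), and against KO naïve replicate 3 alone the difference was -0.32.

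Adam10, the α-secretase gene, ran the other way after ONC and was called only in KO. There it stood at 4336, 3746, 12253 and 3529 normalized counts in naïve retinas, at 11845, 9813, 12033 and 8560.4 after IOP elevation and at 10851, 11198, 12356 and 10132 after ONC. In WT it stood at 11836, 8671, 11141 and 11529 in naïve retinas, at 6034, 8734, 10934 and 6269 after IOP elevation and at 20838, 9392 and 17154 after ONC. In KO naïve retinas 3 libraries lay far below the rest, while replicate 3 was higher than every WT naïve library and lay level with the highest injured KO libraries. Against this mixed group Adam10 was 2.03-fold higher in KO IOP (log2 difference 1.02, 95% CI 0.39 to 1.66, adjusted p = 0.0442) and 2.16-fold higher in KO ONC (log2 difference 1.11, 95% CI 0.47 to 1.75, adjusted p = 0.0114). With KO naïve replicate 3 as the only naïve KO library, the log2 difference was -0.23 for IOP and -0.14 for ONC, and neither passed the test. The KO IOP call was lost in 7 of 8 fits that left out 1 library, all but the one without KO naïve replicate 3. It was also lost with edgeR (adjusted p = 0.113), DESeq2 (adjusted p = 0.0761), no filter and upper-quartile rescaling. Without KO naïve replicate 4 the KO ONC call was lost (adjusted p = 0.0523).

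The large subunit gene of γ-secretase, Ncstn, rose in KO after both injuries. In KO it stood at 5521, 4615, 9188 and 5304 normalized counts in naïve retinas, at 11350.3, 9116, 11410.4 and 9344 after IOP elevation and at 13749, 12259, 12455 and 11276 after ONC. In WT it stood at 10475, 8734, 8313 and 8846 in naïve retinas, at 4689.9, 9246, 8522 and 4909.9 after IOP elevation and at 18722, 9048 and 15381 after ONC. All 4 KO ONC libraries lay above all KO naïve libraries, whereas KO IOP overlapped with KO naïve replicate 3. The rise was 1.73-fold in KO IOP (log2 difference 0.79, 95% CI 0.29 to 1.29, adjusted p = 0.0477) and 2.09-fold in KO ONC (log2 difference 1.06, 95% CI 0.56 to 1.56, adjusted p = 0.00295). In WT ONC it was 1.52-fold higher than in WT naïve, with an adjusted p of 0.108. Against KO naïve replicate 3 alone the log2 differences in KO were 0.16 for IOP and 0.43 for ONC, and neither was called. The KO IOP call was lost in 7 of 8 fits that left out 1 library, all but the one without KO naïve replicate 3. It was also lost with edgeR (adjusted p = 0.0709), no filter, and upper-quartile and quantile scaling.

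Psenen, the smallest of the 9 transcripts and the one whose product lets presenilin mature, rose in KO after both injuries. In KO it stood at 843, 841, 1534 and 1066 normalized counts in naïve retinas, at 1996, 1712, 2060.0 and 1968 after IOP elevation and at 2419, 2265, 2229 and 1816 after ONC. In WT it stood at 1589.9, 1494, 1346 and 1419.9 in naïve retinas, at 1559.9, 1845, 1443 and 1657 after IOP elevation and at 3695, 1666 and 1924 after ONC. The KO libraries of both injuries lay above all KO naïve libraries, replicate 3 included, and all 3 WT ONC libraries lay above the WT naïve ones. Psenen rose 1.86-fold in KO IOP (log2 difference 0.89, 95% CI 0.46 to 1.33, adjusted p = 0.0204) and 2.09-fold in KO ONC (log2 difference 1.06, 95% CI 0.63 to 1.498, adjusted p = 0.000945). In WT ONC it was 1.56-fold higher, just outside the threshold (adjusted p = 0.0507). In 3 of 13 alternative fits of WT ONC, not counting single libraries left out, its adjusted p was under 0.05. Against KO naïve replicate 3 alone the log2 difference kept its sign but was 0.33 in KO IOP and 0.50 in KO ONC, and it was no longer called, a lone library being taken to vary like the other groups. The KO IOP call was lost in 4 of 8 fits that left out 1 library.

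In naïve, IOP and ONC libraries of WT the scaffold gene Aph1a stood at 2212, 1727, 1868 and 1697, at 1349, 1694, 1607 and 1649 and at 4947, 1367 and 2576 normalized counts. In KO it had means (± SD, n = 4) of 1402 ± 593 normalized counts in naïve KO retinas, 2149 ± 284 after IOP elevation and 2556 ± 227 after ONC, and it rose in KO ONC (log2 difference 0.95, 95% CI 0.37 to 1.52, adjusted p = 0.0161). It was not called in KO IOP or in WT. Without KO naïve replicate 1 or 2 or KO ONC replicate 2 the KO ONC call was lost, with an adjusted p of 0.0509 to 0.0645, and against KO naïve replicate 3 alone the difference was 0.17. Its KO ONC libraries (2362 to 2883) lay above all KO naïve libraries (924 to 2262). Within WT ONC it ranged from 1367 to 4947, wider than the whole span of WT naïve (1697 to 2212). Psen2, a gene for the catalytic subunit, was the steadiest of the 9, with a 2.1-fold range over all libraries. It averaged 651 ± 141 (SD, n = 4) and 702 ± 61.4 (SD, n = 4) in naïve retinas of WT and KO, and 907 ± 215 (SD, n = 3) and 964 ± 129 (SD, n = 4) after ONC. The ONC differences of 0.47 in WT and 0.45 in KO (log2) had adjusted p of 0.0993 and 0.0765 and were not called.

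Counted over the 9 genes, calls were made in WT ONC, KO IOP and KO ONC. None was made in WT IOP or between KO and WT, where few of all genes were called. A gene was called at an adjusted p (limma, Benjamini-Hochberg over 17102 genes) under 0.05 and an absolute log2 difference over 0.58. In WT, 0 of 9 were called after IOP elevation, where 1.56% of all tested genes were called. There 1 of the 9 had an unadjusted p under 0.05, as had 13.3% of all genes. After ONC 2 of 9 were called in WT, Aplp2 and Bace1, both lower, against 18.1% of all genes. In KO, 3 of 9 were called after IOP elevation (Psenen, Adam10 and Ncstn, all higher) against 7.88%, and 6 of 9 after ONC (those 3 and Aph1a higher, Aplp2 and Bace1 lower) against 23.6%. The 2 KO comparisons share the KO naïve libraries, as the WT ones share WT naïve. Direct comparison of KO with WT called 0 of 9 in naïve retinas (all genes 0.409%), after IOP elevation (2.11%) and after ONC (0.0877%), where 5, 3 and 0 of the 9 had an unadjusted p under 0.05, as had 15.6%, 21.1% and 9.36% of all genes. edgeR and DESeq2 on the recovered reads also called 0 of 9 in WT IOP and in the 3 comparisons of KO with WT. Over all genes edgeR called 213 in WT IOP and 26, 250 and 2 in the naïve, IOP and ONC comparisons of KO with WT. For DESeq2 these were 589, 536, 940 and 100.

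**Figure D2:**
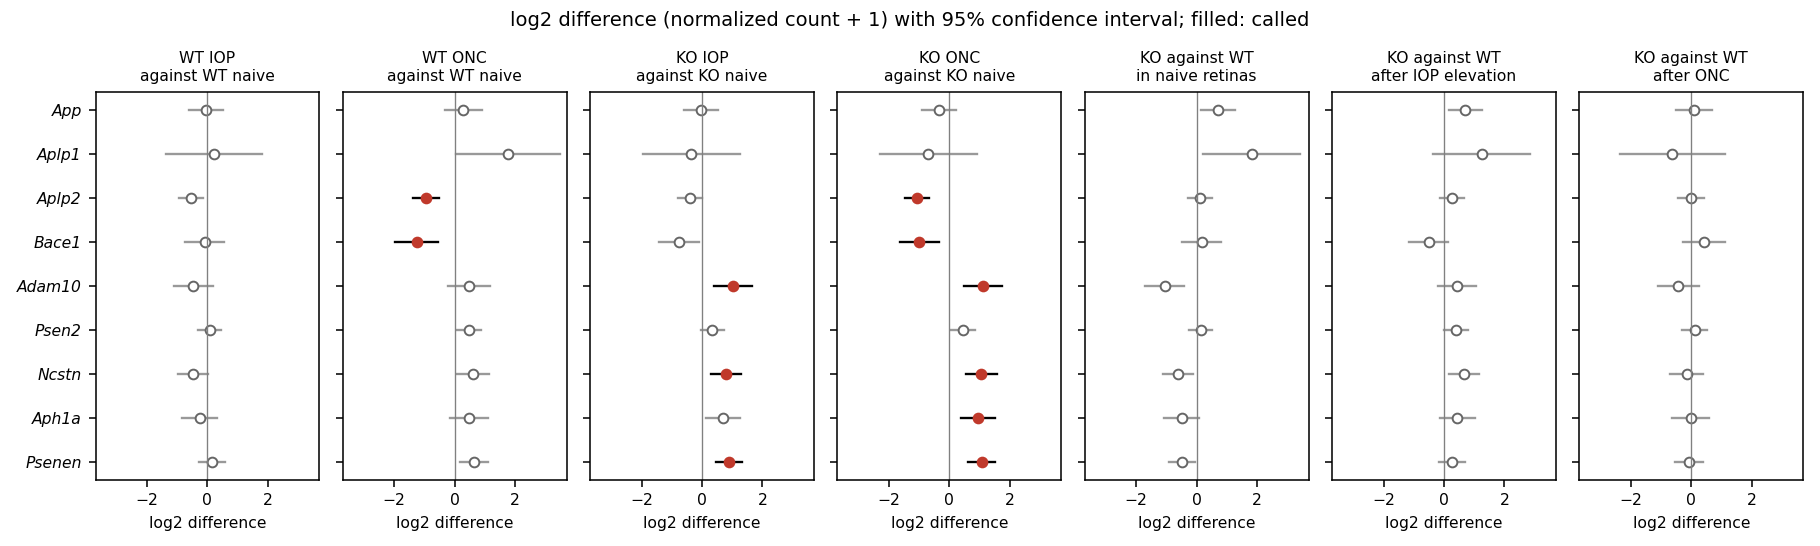
log2 difference in normalized count (+ 1) of the 9 genes in 7 comparisons, with 95% confidence intervals and filled points for called genes. Filled points appear in the WT ONC, KO IOP and KO ONC comparisons with naïve retinas and in none of the 3 comparisons of KO with WT.

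Whether the change after injury differed between genotypes was tested as an interaction. For IOP elevation, 2 of 9 were called, Adam10 (log2 difference of differences 1.49, 95% CI 0.59 to 2.39, adjusted p = 0.036) and Ncstn (1.26, 0.55 to 1.97, adjusted p = 0.0268), with 8.75% of all genes called. The means of Adam10 went from 10794 to 7992 in WT and from 5966 to 10563 in KO. Those of Ncstn went from 9092 to 6842 in WT and from 6157 to 10305 in KO. For ONC, 0 of 9 were called (all genes 0.0702%), likewise 0 by edgeR and DESeq2, which called 3 and 223 of all genes. There 1 of the 9 had an unadjusted p under 0.05, as had 12.4% of all genes, namely Aplp1 (-2.45, 95% CI -4.80 to -0.096, adjusted p = 0.378). edgeR and DESeq2 each called 1 of 9 in the IOP interaction (1215 and 2158 of all genes), where the adjusted p of Adam10 was 0.0858 and 0.0516. With single libraries left out by limma, the call was lost in 11 of 16 fits for Adam10 and 6 of 16 for Ncstn. Without WT IOP replicates 1 and 4, 0 of 9 were called in the IOP interaction, while the calls over all genes went from 1496 to 62. Without KO naïve replicates 1, 2 and 4, the interaction was 0.24 for Adam10 and 0.63 for Ncstn. The call for Aplp2 after ONC was made in both genotypes, with no difference between them shown.

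The composition of the libraries moved with these calls. After ONC, where Aplp2 and Bace1 fell, markers of neurons fell as well, but not only these. Of the 10 retinal ganglion cell markers 7 were called lower in WT ONC (median log2 difference of the list -2.69) and 7 in KO ONC (-2.55). Of the 10 bipolar and amacrine cell markers 5 were called lower in WT ONC (-1.32) and 8 in KO ONC (-1.25). Of the 12 rod markers 2 (-0.73) and 10 (-1.24) were called lower in WT and KO ONC. For the 8 Müller glia and astrocyte markers these were 2 (-0.067) and 5 (-0.92). Of the 10 homeostatic microglia markers 2 (0.24) and 7 (1.26) were called higher. Over all genes 18.1% and 23.6% were called. The part of these lists in the fall of Aplp2 and Bace1 was not tested. The libraries with the least Adam10 and Ncstn, namely KO naïve replicates 1, 2 and 4 and WT IOP replicates 1 and 4, were the 5 libraries with the smallest share of homeostatic microglia transcripts (1.12 to 1.93%). They also held the most rod photoreceptor transcripts, 3.16%, 3.34% and 3.72% in the KO naïve and 2.54% and 2.75% in the WT IOP libraries, against 1.19% in KO naïve replicate 3. WT ONC replicate 2, with 2.34% of microglial and 1.93% of rod transcripts against 3.26% and 3.29%, and 0.514% and 0.62%, in the other 2 libraries, was the one with the most Aplp2 and Bace1 and the least Adam10, Ncstn, Aph1a and Psenen of its group. Without WT ONC replicate 2, 6 of 9 genes were called in WT ONC, with Ncstn, Psen2, Aph1a and Psenen added as higher, while the calls over all genes went from 3093 to 5213. Without KO naïve replicates 1, 2 and 4, the calls fell to 0 of 9 in KO IOP and in KO ONC, where 10 and 74 of all genes were then called. The 3 calls in KO IOP were also unstable to single libraries, as the count went to 5 without KO naïve replicate 3, to 0 without KO naïve replicate 1, 2 or 4 or KO IOP replicate 3, and to 1 without KO IOP replicate 1, 2 or 4. With the mean of the homeostatic microglia list as a covariate, chosen after seeing the data, calls were 0 of 9 in both KO comparisons and 2 of 9 in WT ONC, and the calls over all genes went from 1347 to 4 in KO IOP, from 4043 to 320 in KO ONC and from 3093 to 2860 in WT ONC. With the rod list as a covariate they were 0 and 0 in KO, and 1 in WT ONC. Aplp2 kept its sign in the ONC comparisons under both, at log2 differences of -0.70 and -0.64 with the rod covariate and of -0.83 and -0.58 with the microglial one. What part composition has in the calls of WT ONC was not tested further.

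**Figure D3:**
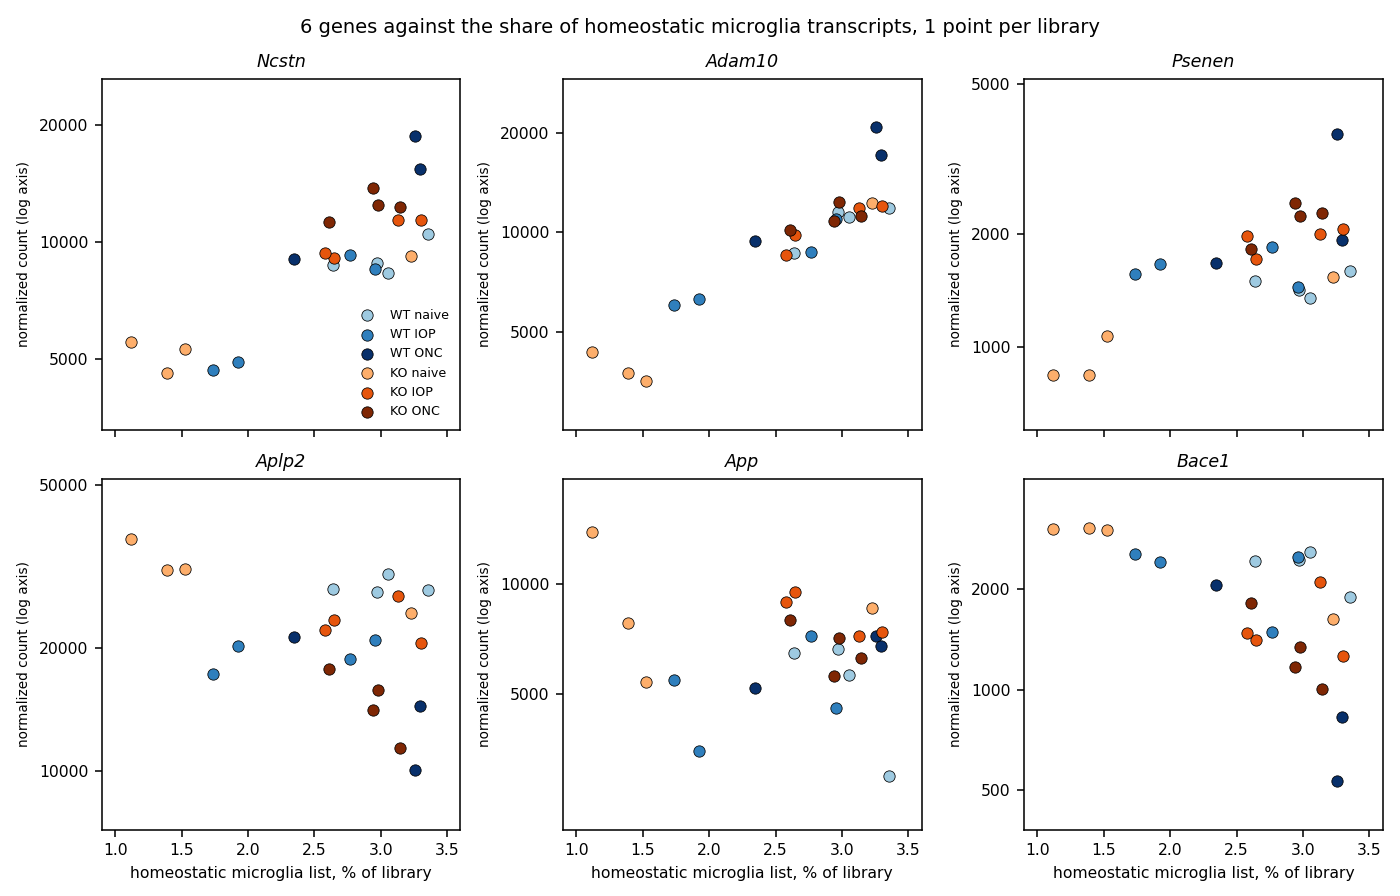
Normalized count (log axis) of 6 genes against the share of homeostatic microglia transcripts in the library (% of normalized counts, 10 markers), 1 point per library, coloured by group. The 5 libraries under 2% on the horizontal axis hold the lowest values of Ncstn and Adam10 and, for the 3 KO naïve libraries, values of Bace1 and Aplp2 at the top of the range.

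Within the APP family, levels were compared per kilobase of the principal transcript. Aplp2 made up 79.6% ± 6.42 (SD, n = 4) of the summed family level in WT naïve, App 17.1% ± 4.46 (SD, n = 4) and Aplp1 3.31% ± 2.46 (SD, n = 4). After ONC the share of Aplp2 was 57.6% ± 10.1 (SD, n = 3) in WT and 58.6% ± 5.1 (SD, n = 4) in KO, from 68.3% ± 9.5 (SD, n = 4) in KO naïve, and that of App was 29.5% ± 10.04 (SD, n = 3) and 30.9% ± 4.12 (SD, n = 4). The larger share of App stood beside a lower Aplp2 and not beside a called change of App itself. These shares were not tested. The ratio of Adam10 to Bace1, each taken per kilobase of its principal transcript, was 6.21 ± 1.49 in WT naïve and 11.6 ± 3.1 in KO ONC. In WT ONC it ranged from 6.01, in replicate 2, to 51.7, and in KO naïve from 1.54 to 9.93, the latter in replicate 3.

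**Figure D4:**
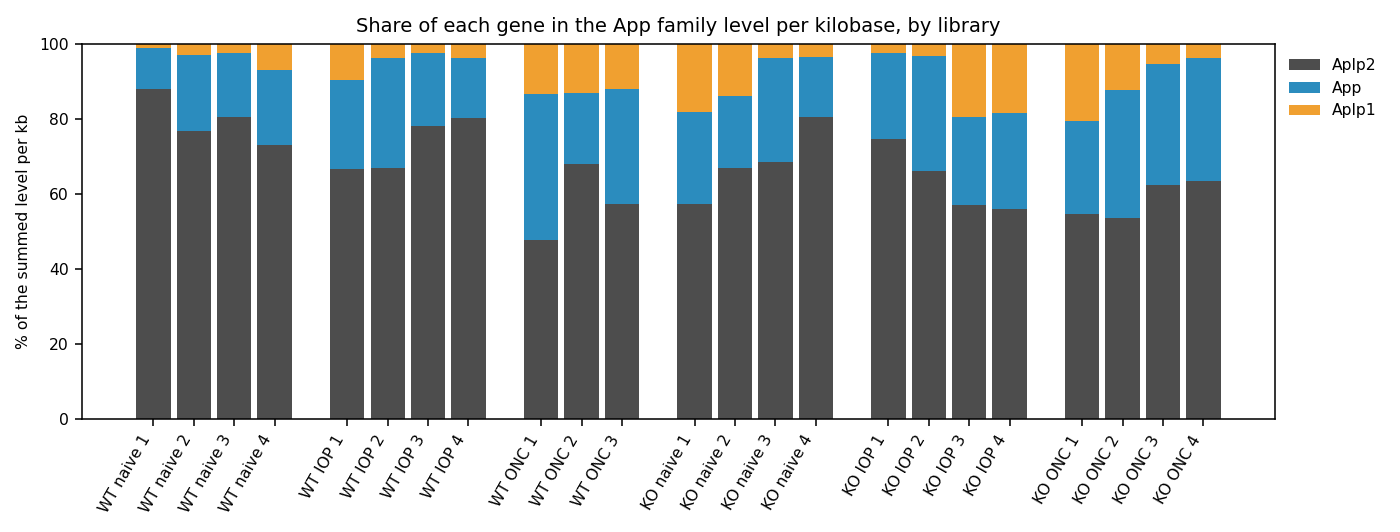
Share of Aplp2, App and Aplp1 in their summed level per kilobase (%), stacked to 100% for each of the 23 libraries. Aplp2 holds the largest share in every library, and Aplp1 varies between replicates of KO naïve, KO IOP and KO ONC.

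The order of levels per kilobase in WT naïve ran from Aplp2 (7784 normalized counts per kb) over Ncstn (3134), Adam10 (2350.2), Psenen (2066), App (1706) and Aph1a (655) to Bace1 (386), Aplp1 (335) and Psen2 (322). The libraries of neighbours in this order overlapped for Adam10 and Psenen, Psenen and App, Bace1 and Aplp1, and Aplp1 and Psen2, so that those pairs could not be ranked. After ONC Ncstn (4958 in WT and 4286 in KO) and Aplp2 (4187 and 4051) overlapped at the top. Bace1 had the lowest mean (188 and 220.0), overlapping with Psen2 in WT ONC and below it in every library of KO ONC. The α-secretase gene Adam10 was above the β-secretase gene Bace1 per kilobase in every group, and no library of one overlapped a library of the other within a group. The place of App depends on the transcript taken, because its annotated transcripts range up to 8167 bases and the principal one has 3176.

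The other secretase genes held Adam9 and Adam17, further metalloproteases that can shed APP, with Bace2, Aph1b and Aph1c. Of these 5, 0 were called by limma in WT after either injury, against 1.56% of all genes after IOP elevation and 18.1% after ONC. An unadjusted p under 0.05 was found for 0 after IOP elevation (13.3% of all genes) and for 2 after ONC (33.9% of all genes). In KO, Adam9 rose after IOP elevation from 2525 ± 818 to 3781 ± 266 (log2 difference 0.64, adjusted p = 0.0428) and Adam17 from 3486 ± 2276 to 6203 ± 1289 (0.99, adjusted p = 0.0383). In that comparison 7.88% of all genes were called. After ONC in KO 2 of the 5 rose, Adam9 (0.69, adjusted p = 0.0115) and Adam17 (1.31, adjusted p = 0.00209), where 23.6% of all genes were called. The list's median in KO ONC was 0.57 against -0.12 over all genes. Adam9 and Adam17 were also called in the IOP interaction (0.90 and 1.54, adjusted p = 0.0398 and 0.0227), where 8.75% of all genes were called. KO naïve libraries stood apart here too, as they held 2245 to 6899 normalized counts of Adam17, the highest of them above the KO IOP mean. Without KO naïve replicates 1, 2 and 4 the log2 differences of Adam9 were 0.22 in KO IOP and 0.27 in KO ONC, those of Adam17 were -0.18 and 0.14, and none was called. Bace2 was uneven, from 16 to 306 normalized counts in WT naïve, 0 to 1524 in KO naïve and 0 to 2.3 in WT ONC. Aph1b and Aph1c are near-identical copies between which reads can be split, and neither was called.

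Of the 20 genes for proteins that bind or sort APP, 6 were called in WT ONC, with 2 higher and 4 lower, against 18.1% of all genes, and 6 in KO ONC, with 3 higher and 3 lower, against 23.6% of all genes. The list's median log2 difference was 0.0078 and 0.18, against -0.097 and -0.12 over all genes. Itm2b, a membrane protein that binds APP and hinders its cutting, was the most abundant and rose in both, from 80032 ± 10197 to 233557 ± 111355 in WT (adjusted p = 0.00488) and from 56540.4 ± 26005 to 191480.0 ± 28261 in KO (adjusted p = 0.000242). Gsap, named for activating γ-secretase, rose 2.48-fold in WT (adjusted p = 0.00159) and 3.19-fold in KO (adjusted p = 7.33e-05). Apbb1 (Fe65), which binds the APP tail, fell 2.62-fold and 2.6-fold (adjusted p = 0.000589 and 0.000276), and it also fell in KO IOP (1.9-fold, adjusted p = 0.0246). The adaptor genes Dab1 (1.82-fold and 2.41-fold) and Mapk8ip1 (2.55-fold and 2.64-fold) fell in both as well. Apba2 was called lower in WT ONC (3.36-fold, adjusted p = 0.0346) and not in KO ONC, and the endocytic receptor gene Lrp1 was called higher in KO ONC (1.78-fold, adjusted p = 0.0205) and not in WT ONC, with no interaction called for either. In the IOP interaction Itm2c (1.05) and Numb (1.03) were called, and without KO naïve replicates 1, 2 and 4 they were 0.62 and 0.20 and were not. The highest KO naïve value of Numb (5865) was above all KO IOP libraries (at most 5682). None of the 20 was called in WT IOP or in a comparison of KO with WT. In WT IOP 3 had an unadjusted p under 0.05, as had 13.3% of all genes. In the naïve, IOP and ONC comparisons of genotypes 3, 3 and 2 did, against 15.6%, 21.1% and 9.36% of all genes.

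Of 4 genes for amyloid-β degrading enzymes, the endothelin-converting enzymes Ece1 and Ece2 fell in WT ONC, where 18.1% of all genes were called. Ece1 went from 2170.1 ± 426 to 809 ± 105 normalized counts (adjusted p = 0.0233) and Ece2 from 575 ± 125 to 98.2 ± 83.8 (adjusted p = 0.000476), where Ece2 shares most of its exon bases with Gm49333 on the same strand. In KO ONC 1 of the 4 was called, against 23.6% of all genes, namely Ece1, 2.37-fold lower (adjusted p = 0.0227). Ide, the insulin-degrading enzyme, averaged 2553 ± 937 in WT naïve and 2672 ± 712 in WT ONC and was not called. Mme (neprilysin) was at or under the limit of 3 reads in some libraries, with 4.6 as the highest value in WT ONC. Without KO naïve replicates 1, 2 and 4, none of the genes of these 3 lists was called in KO IOP, KO ONC or the IOP interaction.

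The genes whose profile over the 23 libraries was nearest to that of App, by the root mean square difference of centred log2 values over 17101 other genes, were Poldip2 (0.28), Pdcd4 (0.29), Stub1 (0.29), Slc6a6 (0.31) and Nfe2l1 (0.32). Among the members, Psen2 came closest to App, at rank 229, and Aplp1 was farthest, at rank 11525. A gene that hardly varies is near to App by this measure, as the SD of Psen2 over libraries was 0.31 against 0.47 for App. Nearest to Aplp1 were Chpf (0.44), Strn4 (0.47), Dner (0.50), Wrnip1 (0.50) and Irgq (0.52), with an SD of 1.29 for Aplp1 itself. The SD of Aplp1 over libraries was thus wider than that of App.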

How the data were processed

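FACS-sorted GFP+ microglia of mouse retinas were profiled by RNA-seq in 23 libraries of 6 groups, and the labels of each library gave genotype, treatment and replicate number. RNA was extracted with a column kit and libraries were made with a SMARTer kit. According to the study's methods the reads were mapped with salmon to GRCm38, whereas the submitters' processing notes name STAR, DESeq2 and GRCm38. Versions are not given in the sources used here. The authors deposited normalized counts, a signal value that is a gene's reads over the size factor of its library, for 35825 genes. Whole reads could be recovered from the steps between values in all 23 libraries (100% of values within 0.02 reads), and the size factors of KO IOP replicates 2 and 4 were within about 1% of 1.

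limma 3.58.1 (R 4.3.3) was fitted to log2(normalized count + 1), with the 6 groups in the design, an intensity trend and no covariate. The test covered 17102 genes that reached 10 normalized counts in 3 or more libraries, in 9 comparisons, 2 of them interactions, with Benjamini-Hochberg adjustment over all of them, and the procedure was tested on simulated data. The 9 genes, the other gene lists and the tests were chosen with earlier results of these data known. All 9 genes were tested in every comparison, and not every uncalled difference is printed. Of the other lists, called genes were named with values, and 1 or 2 abundant or low genes for orientation (Bace2, Ide and Mme were named after their values were seen). The 5 nearest profiles were named for App and for Aplp1. One gene of the lists is not reported here. Lists were written for markers of microglia, rods, ganglion cells, bipolar and amacrine cells, Müller glia, lens and endothelium with pigment epithelium. Levels per kilobase used the principal transcript of GENCODE M21, matched by gene ID without its version (35436 of 35825 IDs). Motifs were counted in RefSeq promoters of GRCm38.p6.

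Alternatives were edgeR 4.0.16 and DESeq2 1.42.0 on recovered reads, fits of only the 2 or 4 groups in a comparison, a block for the replicate number, a covariate for the rod list, quantile and upper-quartile scaling, pseudocounts of 0.5 and 5, a mean filter of 50 or none, calls by the adjusted p alone, and fits without each library in turn. A microglial covariate and the removal of KO naïve replicates 1, 2 and 4 or of WT IOP replicates 1 and 4 were added after seeing the data. Figures used matplotlib 3.10.9 under Python 3.11.15, and tables pandas 2.3.3 and numpy 2.4.6.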

Additional observations from a re-analysis of the deposited data

Results flagged for a closer look

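In 4 of 45 combinations of gene and group with 4 libraries, a library was set apart from the other 3, where chance gives about 1 in 20. The measure is the gap to the nearest library over the range of the group. A small difference in a tight group can therefore be flagged. Adam10 in KO naïve replicate 3 was at 12253 normalized counts, with the other KO naïve libraries at 3529 to 4336. Bace1 in the same library was the lowest of its group, at 1627 against 3018 to 3058. Bace1 in WT IOP replicate 2 was at 1492 against 2408 to 2554, and Aplp2 in WT naïve replicate 3 was at 30230.3 against 27409 to 27871.

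In the limma fit of all libraries the change after IOP elevation differed between the genotypes for Adam10 and Ncstn. The interaction was 1.49 (log2, adjusted p = 0.036, limma) for Adam10 and 1.26 (adjusted p = 0.0268) for Ncstn. The share of homeostatic microglia transcripts moved with it, from a median of 3.01% in WT naïve to 2.35% in WT IOP, and from 1.46% in KO naïve to 2.89% in KO IOP. With that list as a covariate the interaction was -0.066 for Adam10 and 0.15 for Ncstn, and neither was called. That list holds Cx3cr1, which was called lower in KO IOP than in KO naïve, while 9 of its 10 genes were higher. Adam10 also lost its call with edgeR, with DESeq2, without a filter and in 11 of 16 fits that left out 1 library, and Ncstn in 6 of 16 such fits.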

How the results depend on the processing

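Of 210 recomputed counts of called members, 164 stayed within 1.5 times the reported count, and of 863 recomputed log2 differences 29 changed sign. Called members were 0 in the comparisons of KO with WT after IOP elevation and after ONC and in the ONC interaction under every alternative run. In WT IOP the count of 0 became 1 with the rod or the microglial covariate, and in naïve retinas KO against WT became 1 with quantile normalization. In WT ONC the count of 2 became 1 with the rod covariate and 0 in a fit of the compared groups alone. It became 3 with DESeq2 and with the mean filter of 50. In KO IOP the count of 3 became 1 without a filter, with upper-quartile rescaling and with edgeR, and 0 with the rod or microglial covariate, in a fit of the compared groups alone and without KO naïve replicates 1, 2 and 4. In KO ONC the count of 6 became 0 with either covariate and without those 3 libraries. It became 7 with quantile normalization and 5 in a fit of the compared groups alone. In the IOP interaction the count of 2 became 1 without a filter, with edgeR and with DESeq2, and 0 with either covariate, without KO naïve replicates 1, 2 and 4 and without WT IOP replicates 1 and 4. The cause was not tested, and since the covariates differ between the groups, composition and group cannot be told apart by them. Over all genes, edgeR called 559 and DESeq2 1901 in KO IOP, where limma called 1347, and 26 and 536 in naïve KO against WT, where limma called 70. In KO IOP the fit of the compared groups alone called 5, the rod covariate 11, the microglial covariate 4 and the removal of KO naïve replicates 1, 2 and 4 left 10, and single libraries left out gave 92 to 3182. In naïve KO against WT these were 14, 62, 26, 8 and 1 to 1623, the highest in both without KO naïve replicate 3.

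Leaving out single libraries gave counts of 1 to 6 in WT ONC, 0 to 5 in KO IOP, 4 to 6 in KO ONC, 0 to 3 in naïve KO against WT and 0 to 4 in the IOP interaction. The highest count came without WT ONC replicate 2 in the first, and without KO naïve replicate 3 in KO IOP, naïve KO against WT and the interaction. WT ONC gave 1 without replicate 1 or 3. The interaction gave 0 without WT naïve replicate 1, WT IOP replicate 1 or 4, KO naïve replicate 2 or 4 or KO IOP replicate 3, and 1 without WT naïve replicate 3 or 4, KO naïve replicate 1 or KO IOP replicate 1 or 2. The log2 difference of App ranged over single libraries left out from -0.32 to 0.12 in WT IOP, from -0.25 to 0.20 in KO IOP and from -0.058 to 0.18 in KO against WT after ONC.

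Signs changed as follows. With the microglial covariate KO IOP gave 0.0060 for Aplp2, 0.15 for Bace1, -0.12 for Adam10, -0.022 for Ncstn and -0.15 for Aph1a, and KO ONC gave 0.080 for Bace1, -0.24 for Adam10 and -0.056 for Aph1a. With it naïve KO against WT gave 0.086 for Ncstn, and the IOP interaction -0.066 for Adam10 and -0.21 for Aph1a. Without KO naïve replicates 1, 2 and 4, Adam10 was -0.23 in KO IOP, -0.14 in KO ONC and 0.19 in naïve KO against WT, Aph1a was -0.083 in KO IOP, and in naïve KO against WT Ncstn was 0.021 and Psenen 0.072. App in WT IOP was 0.091 with quantile normalization, 0.030 with the rod covariate and 0.15 without WT IOP replicates 1 and 4, and in WT ONC -0.014 with quantile normalization. Upper-quartile rescaling moved the median of all genes in WT ONC from -0.10 to -0.21 and in the IOP interaction from -0.08 to -0.19.

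Replicate numbers did not pair the libraries, as 10 of 55 same-numbered pairs had correlated deviations over 0.1 (range -0.253 to 0.23). With the replicate number as a block, called members were 0 in WT IOP, 2 in WT ONC, 3 in KO IOP, 6 in KO ONC, 2 in the IOP interaction and 0 in the others, the counts reported without the block.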
